A study of Homo sapiens with 6 samples.

Results

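Mitochondrial ribosomal protein genes were followed in LNCaP cells given dihydrotestosterone (DHT), the most potent natural androgen. LNCaP is an established androgen-responsive line from a human prostate cancer metastasis, and the labels describe a single line in culture. Of the 6 cultures, 3 were stimulated with 100 nM DHT for 48 h and 3 were controls, all after 3 days in phenol red-free medium with 10% charcoal-stripped serum, which removes steroids. The labels call the cultures of a group biological replicates, and they do not say what was added to the controls. RNA of each culture was read on 1 Affymetrix array, and the values are MAS5 signals on a linear scale. The members are the genes whose symbol is MRPS or MRPL followed by a number and, at most, a letter from A to C. Of 14269 genes tested on the arrays, 75 are members, 27 of the small subunit (MRPS) and 48 of the large subunit (MRPL). None was lost to the limit on dim probe sets. MRPS24 and MRPL53, whose symbols match the rule, have no probe set naming them alone and were not analysed here.

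The mitochondrial ribosome translates the few messages made from mitochondrial DNA, all of which encode subunits of the respiratory chain and of ATP synthase. Its proteins are encoded in the nucleus, made in the cytosol and imported, so its supply depends on nuclear transcription. The small subunit holds the decoding centre. The large subunit forms peptide bonds and carries the exit tunnel. Many of the proteins descend from bacterial ribosomal proteins, and others are found only in mitochondrial ribosomes.

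The arrays had medians of 27.9 to 30.1 in the DHT cultures and 25.7 to 30.0 in the controls, on a common deposited scale. KLK3, which encodes prostate-specific antigen, had a signal of 8985 ± 441 with DHT and 2186 ± 261 in the controls (SD, n = 3 each), and the other tested luminal markers had mean signals over all arrays from 516 (KRT8) to 2587 (KRT18). Of these, KRT8 fell, at 437 with DHT and 595 in the controls (limma adjusted p = 0.00574), and HOXB13 fell, at 1203 with DHT and 1556 in the controls (adjusted p = 0.0212), while KRT18 and FOLH1 did not pass (0.23 and 0.33 on the log2 scale). The basal keratins KRT5 and KRT14, the leukocyte marker PTPRC and the fibroblast marker LUM lay below the limit on dim probe sets, at mean signals of 7.53 to 15.0. The other fibroblast markers were tested, with COL1A1 lower with DHT at 131.8 against 197.9 in the controls (limma adjusted p = 0.0186). DCN (-0.10, adjusted p = 0.750) and COL1A2 (-0.04, adjusted p = 0.962) did not pass, at mean signals of 49.1 and 23.7. In such bulk RNA, fewer cells of a type and less RNA per cell cannot be told apart.

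With DHT, few mitoribosomal genes changed and the changes were small. Of 75 members, 9 fell and 2 rose at a limma adjusted p of 0.05 over all genes tested. The members called in either direction were 14.7% of the list, against 12.9% of all genes tested, so the share was near the background. By direction, 12% of members fell, against 5.91% of all genes, and 2.67% rose, against 6.95% of all genes. The genes that fell were MRPS9, MRPS34, MRPS6, MRPS18C and MRPS27 of the small subunit and MRPL28, MRPL12, MRPL4 and MRPL23 of the large subunit. The genes that rose were MRPL32 and MRPL24, both of the large subunit. Fold changes on the log2(signal + 16) scale ran from -0.66 (MRPL28) to 0.31 (MRPL32), and 58 of the 75 members lay within 0.25 of 0. The counts depended on single arrays. The count of falls was 5 without DHT replicate 3, without control replicate 1 or without control replicate 3. No rise passed limma without DHT replicate 3, control replicate 2 or control replicate 3, 1 passed without DHT replicate 1 or DHT replicate 2, and 3 passed without control replicate 1. Without an intensity trend in limma's variance no member passed, and with array medians set equal 4 fell and none rose. At an unadjusted p under 0.05, 18 members were lower, against 12.1% of all genes, and 4 were higher, against 13.8% of all genes.

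**Figure D1:**
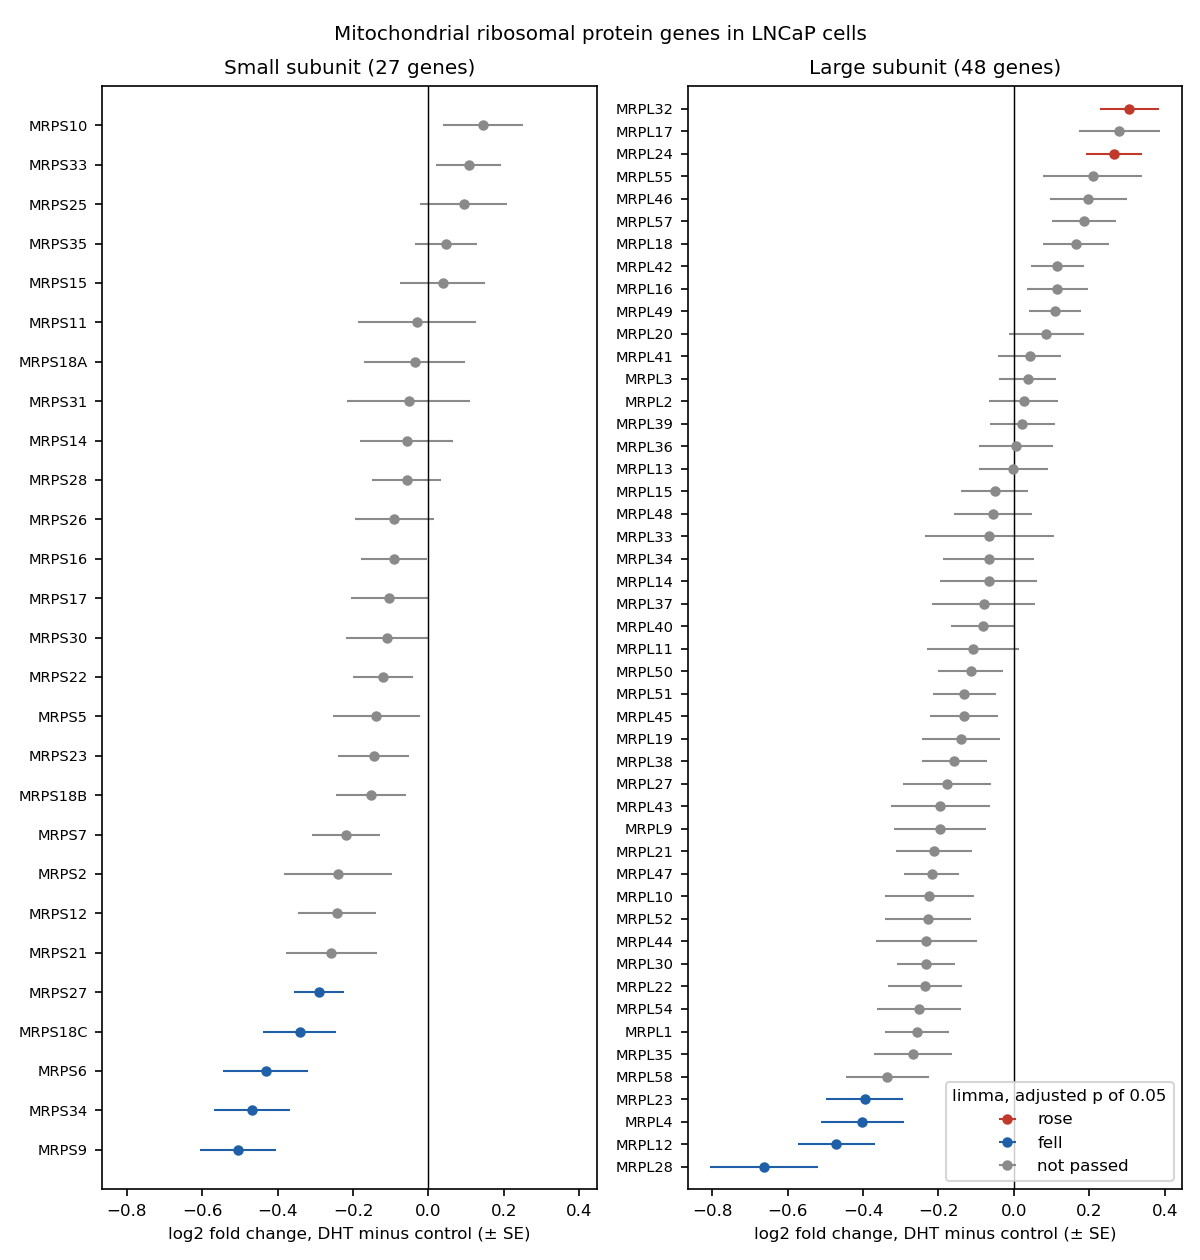
Log2 fold change (DHT minus control, on log2(signal + 16)) of each mitoribosomal gene with limma's standard error, for 27 small subunit genes at left and 48 large subunit genes at right. Colours mark genes past an adjusted p of 0.05 over all genes. Of the small subunit genes 22 lie left of 0, and of the large subunit genes 32.

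The list as a whole leaned to lower signals with DHT. The fold change was below 0 for 54 of 75 members (72.0%), against 46.8% of all genes tested, and its median was -0.11, against 0.02 over all genes. The DHT arrays all lay below the control arrays for 19 members, against 14% of all genes, and all above them for 5, against 16.9% of all genes. Much of this lean came with 1 control array. Control replicate 1 had the highest control signal for 61 of 75 members. Without it, 42 members were below 0 (56.0%, against 47.9% of all genes) and the median was -0.05. Without DHT replicate 3 the share was 62.7% (against 47.3% of all genes) and the median -0.08. Without each of the other arrays the share was 73.3% to 80%. With the probe sets of each gene averaged it was 65.3% (against 48.3% of all genes), and the median was -0.065.

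In the small subunit, 5 of 27 members fell (18.5%, against 5.91% of all genes) and none rose (against 6.95% of all genes). MRPS9, a homologue of the bacterial protein at the decoding side of the subunit head, had the smallest adjusted p of all members. Its signals were 199, 241 and 221 on the DHT arrays, against 333, 335 and 289.8 on the control arrays. Every DHT array lay below every control array, with a difference of -0.51 ± 0.10 on the log2 scale (SE; adjusted p = 0.00730 in limma), a 1.45-fold lower signal. MRPS34, a protein found only in mitochondrial ribosomes, had signals of 184, 197 and 166 with DHT, against 275, 261 and 239 in the controls. The groups did not overlap, and the fold change was -0.47 ± 0.10 (adjusted p = 0.0107). MRPS6, a homologue of a bacterial platform protein, had 224, 230.1 and 193 with DHT, against 339, 261 and 292 in the controls, and control replicate 1 stood highest. Its fold change was -0.43 ± 0.11 (adjusted p = 0.0270). MRPS27, an RNA-binding protein with pentatricopeptide repeats, had 835, 842 and 823 with DHT, against 1019, 999.6 and 1049 in the controls. The groups did not overlap, and the fold change was -0.29 ± 0.07 (adjusted p = 0.0162). MRPS9 and MRPS34 passed under 15 of 16 alternative settings. MRPS6 did not pass without DHT replicate 1 or 3 or control replicate 1 or 3 (adjusted p = 0.0543 to 0.0974), and MRPS27 lost its call without replicate 3 of either group, at adjusted p-values of 0.0553 (DHT array left out) and 0.0594 (control array left out). The mean of the MRPS27 probe sets gave -0.12 (adjusted p = 0.482). It includes a probe set near the limit on dim probe sets, with signals of 12.5 to 25.1.

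The promoters of the members whose call was kept in most settings, and of the member that rose most, are shown because a reader can place in them the motif letters described further on. They come from RefSeq (GRCh38.p14), run 5′ to 3′ on the gene's strand from 250 bases before to 50 bases after its start, and matches to the searched motifs are in capitals. MRPS9 lies at chr2:105037819-105038118 on the plus strand and MRPS34 at chr16:1773085-1773384 on the minus strand. MRPL28 lies at chr16:370489-370788 on the minus strand and MRPL32 at chr7:42932126-42932425 on the plus strand.
MRPS9: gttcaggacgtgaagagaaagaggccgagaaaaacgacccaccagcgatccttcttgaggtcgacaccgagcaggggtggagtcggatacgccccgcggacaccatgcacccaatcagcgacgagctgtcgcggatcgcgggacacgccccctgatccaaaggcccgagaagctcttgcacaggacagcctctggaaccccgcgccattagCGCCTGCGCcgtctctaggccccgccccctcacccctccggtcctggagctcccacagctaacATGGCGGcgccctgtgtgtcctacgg
MRPS34: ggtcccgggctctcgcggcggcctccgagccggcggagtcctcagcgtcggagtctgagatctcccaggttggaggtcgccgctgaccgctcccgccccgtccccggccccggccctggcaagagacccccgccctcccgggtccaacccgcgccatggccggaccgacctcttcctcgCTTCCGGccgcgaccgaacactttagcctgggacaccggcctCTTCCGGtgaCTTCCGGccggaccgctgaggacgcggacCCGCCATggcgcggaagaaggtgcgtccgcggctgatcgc
MRPL28: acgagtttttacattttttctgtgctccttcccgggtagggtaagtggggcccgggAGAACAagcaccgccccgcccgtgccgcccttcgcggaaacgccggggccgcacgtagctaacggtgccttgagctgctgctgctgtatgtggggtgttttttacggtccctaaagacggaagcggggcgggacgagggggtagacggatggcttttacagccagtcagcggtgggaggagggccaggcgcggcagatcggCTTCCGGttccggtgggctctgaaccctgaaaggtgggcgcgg
MRPL32: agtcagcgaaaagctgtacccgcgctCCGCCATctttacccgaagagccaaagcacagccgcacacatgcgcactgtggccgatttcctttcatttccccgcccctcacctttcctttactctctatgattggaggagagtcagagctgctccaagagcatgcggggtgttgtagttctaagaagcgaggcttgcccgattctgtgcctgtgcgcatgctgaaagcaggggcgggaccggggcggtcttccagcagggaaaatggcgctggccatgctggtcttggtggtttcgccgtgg

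The MRPS18 genes are 3 nuclear copies related to 1 bacterial small subunit protein, and structures place the MRPS18A protein in the large subunit. MRPS18C had signals of 343, 357 and 405 with DHT, against 525, 438 and 451 in the controls, without overlap. It fell by 0.34 ± 0.10 on the log2 scale (SE; limma adjusted p = 0.0390). MRPS18B had 323, 340.3 and 354 with DHT, against 415, 338 and 385 in the controls. Its groups overlapped and its fold change was -0.15 ± 0.09 (adjusted p = 0.337). MRPS18A had 161, 216 and 178 with DHT, against 215, 198 and 158 in the controls, and its groups overlapped over most of their range (-0.04 ± 0.13, adjusted p = 0.900). The difference between the copies was not tested. The MRPS18C call was the least steady of the small subunit. It did not pass without DHT replicate 1 or 2 or control replicate 1 or 3 (adjusted p = 0.0719 to 0.129). The mean of the MRPS18C probe sets gave -0.15 (adjusted p = 0.385), and includes a dim one with signals of 21.4 to 29.9.

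Of the other small subunit genes, 22 did not pass, with adjusted p-values of 0.150 or more. MRPS12, a homologue of the bacterial decoding-centre protein whose mutations give streptomycin resistance, had 457, 427 and 362 with DHT, against 540.2, 494 and 446 in the controls, a fold change of -0.24 ± 0.10 (limma adjusted p = 0.160). MRPS16 and MRPS22, both mutated in inherited respiratory chain deficiency, had fold changes of -0.09 (adjusted p = 0.567) and -0.12 (adjusted p = 0.373). The MRPS22 value comes from an _x_at probe set, a kind prone to cross-hybridisation. MRPS30, also placed in the large subunit by structures, had -0.11 (adjusted p = 0.584). The highest fold changes of the small subunit were those of MRPS10 (0.14), MRPS33 (0.11) and MRPS25 (0.09), all with overlapping groups.

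In the large subunit, 4 of 48 members fell (8.33%, against 5.91% of all genes) and 2 rose (4.17%, against 6.95% of all genes). MRPL28, a homologue of a bacterial large subunit protein, had the largest fold change of all members. Its signals were 149.6, 138 and 157 with DHT, against 315, 225 and 202 in the controls. Control replicate 1 stood far above the other controls, but the groups did not overlap without it either, and the fold change of -0.66 ± 0.14 (SE; limma adjusted p = 0.0115) was -0.48 with that array left out (adjusted p = 0.0272). MRPL12, the homologue of the bacterial stalk protein that recruits translation factors, had 390.1, 309.5 and 306 with DHT, against 497, 469 and 438 in the controls. It fell by 0.47 ± 0.10 (adjusted p = 0.0121), and with DHT replicate 2 left out its adjusted p was 0.0508. MRPL23, whose bacterial homologue lies at the mouth of the exit tunnel, had 339, 319 and 289 with DHT, against 480.5, 388 and 395 in the controls, and its fold change was -0.40 ± 0.10 (adjusted p = 0.0263). MRPL4, whose bacterial homologue lines the exit tunnel, had 245, 264 and 195 with DHT, against 311, 322 and 305 in the controls (-0.40 ± 0.11, adjusted p = 0.0337). MRPL23 did not pass without DHT replicate 2 or 3 or control replicate 1 (adjusted p = 0.0661 to 0.0958), and MRPL4 passed among the arrays left out in turn only without DHT replicate 2 (adjusted p = 0.0582 to 0.104 without each of the others). The mean of the MRPL4 probe sets gave -0.03 (adjusted p = 0.875).

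The rises were in bright probe sets. MRPL32, a protein that the mitochondrial AAA protease must trim before it enters the large subunit, had signals of 926, 887 and 975 with DHT, against 808, 707 and 733 in the controls. All DHT arrays lay above all controls, by 0.31 ± 0.08 on the log2 scale (SE; limma adjusted p = 0.0247). MRPL24, a homologue of a bacterial assembly-initiating protein, had 960.3, 1032 and 1046 with DHT, against 893, 803 and 825 in the controls, again without overlap (0.27 ± 0.07, adjusted p = 0.0386). Neither call was steady. MRPL32 did not pass without DHT replicate 1 or 3 or control replicate 2 or 3 (adjusted p = 0.0621 to 0.0934), and MRPL24 not without DHT replicate 2 or 3 or control replicate 2 or 3 (adjusted p = 0.109 to 0.123). With equal array medians the values were 0.24 for MRPL32 (adjusted p = 0.238) and 0.20 for MRPL24 (adjusted p = 0.330). Scaling to the spiked-in bacterial controls shifts each array as a whole and took the median of all genes from 0.02 to -0.51. Both genes then lay below 0, at -0.22 for MRPL32 and -0.26 for MRPL24, but still above that median. Their turned sign follows from the shift and says nothing of the steadiness of the calls.

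**Figure D2:**
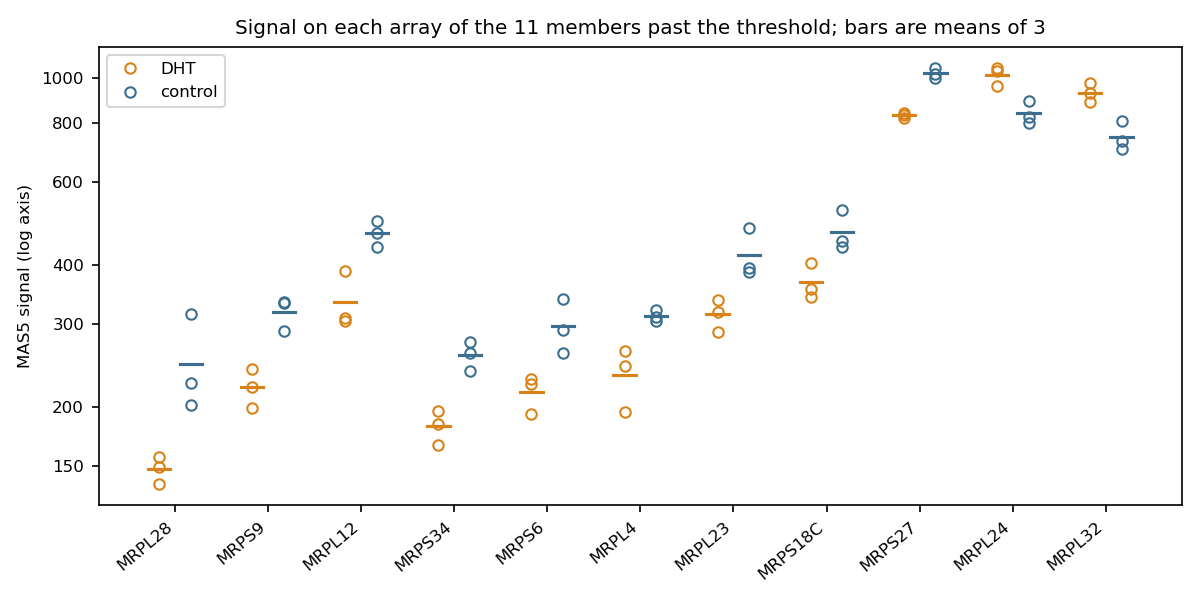
MAS5 signal (log axis) on each array of the 11 mitoribosomal genes past the threshold, ordered by fold change, with DHT cultures left and controls right for each gene and a bar at the mean of 3 arrays. The groups do not overlap for any of the 11 genes, which were chosen by limma on these same arrays. Over all genes tested, the DHT arrays lay wholly below the controls for 14% and wholly above for 16.9%. MRPL28 has a control array at 315, above the other controls at 225 and 202.

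The other 42 large subunit genes did not pass. Closest to the threshold was MRPL58, a peptidyl-tRNA hydrolase built into the ribosome that releases stalled chains, with 316, 336 and 285 with DHT, against 469.9, 373 and 359 in the controls. The groups did not overlap, with a fold change of -0.34 ± 0.11 (limma adjusted p = 0.0699). MRPL30 (-0.23), MRPL1 (-0.26) and MRPL47 (-0.22) followed at adjusted p-values of 0.0712 to 0.0767, each with all DHT arrays below all controls. MRPL44, which has a fold like that of an RNA-cutting enzyme and is mutated in infantile cardiomyopathy, had -0.23 ± 0.13 (adjusted p = 0.313). The bright genes MRPL3, a core protein near the peptidyl transferase centre, and MRPL41 sat almost level. MRPL3 had 1928, 1915 and 1757 with DHT, against 1957, 1755 and 1747 in the controls, and MRPL41 1865, 2149.6 and 1871 with DHT, against 2044, 1919 and 1753 in the controls (0.04 each, adjusted p = 0.809 each). A higher signal with DHT that did not pass was seen for MRPL17 (0.28, adjusted p = 0.116), whose groups overlapped, and for MRPL46, MRPL42 and MRPL49, whose groups did not.

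Small and large subunits differed little as sets. The median fold change was -0.11 in the small subunit (quartiles -0.24 and -0.04) and -0.10 in the large subunit (-0.22 and 0.04), on log2(signal + 16). The small minus large difference of the medians was -0.014, and it ran from -0.026 to 0.000587 with single arrays left out. Members below 0 were 22 of 27 (81.5%) in the small subunit and 32 of 48 (66.7%) in the large one, against 46.8% of all genes. Without control replicate 1 they were 17 and 25. With the probe sets of each gene averaged they were 18 and 31, and the medians were -0.065 and -0.066. Falls made up 18.5% of the small and 8.33% of the large subunit, against 5.91% of all genes. Rises were 0 of 27 and 2 of 48 (4.17%), against 6.95% of all genes. At an unadjusted p under 0.05 in limma, no small subunit gene was higher and 7 were lower, against 4 higher and 11 lower in the large subunit. Of all genes, 13.8% were higher and 12.1% lower at that threshold. Members are not replicates, and no test of the subunit difference was made. With the spike scaling the medians were -0.64 and -0.62, against -0.51 over all genes. With MRPS30 and MRPS18A counted in the large subunit, the medians were -0.12 and -0.10.

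Array by array, the subunits moved alike. Averaged over genes and set against the control mean on the log2(signal + 16) scale, the small subunit stood at -0.12, -0.07 and -0.22 on the DHT arrays, against 0.13, -0.05 and -0.08 on the control arrays. The large subunit stood at -0.08, -0.05 and -0.14 on the DHT arrays, against 0.12, -0.05 and -0.07 on the control arrays. In both, control replicate 1 was highest and DHT replicate 3 lowest, and the groups overlapped, with DHT replicate 2 above control replicate 3. Over all genes tested the same measure lay between 0.02 and 0.03 on the DHT arrays and between -0.01 and 0.02 on the control arrays. The ACTB control probe sets gave a 3′ over 5′ ratio, a sign of RNA integrity and labelling, of 1.77 ± 0.07 with DHT and 1.37 ± 0.05 in the controls (SD, n = 3 each; two-sided exact permutation p = 0.1, the smallest that 3 against 3 arrays allow). For GAPDH the ratio was 1.06 ± 0.05 with DHT and 0.904 ± 0.044 in the controls (exact permutation p = 0.1). The spiked-in bioB control had a signal of 261 ± 27.6 with DHT and 152 ± 14.3 in the controls (exact permutation p = 0.1). The part of these values in the mitoribosomal values was not tested.

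**Figure D3:**
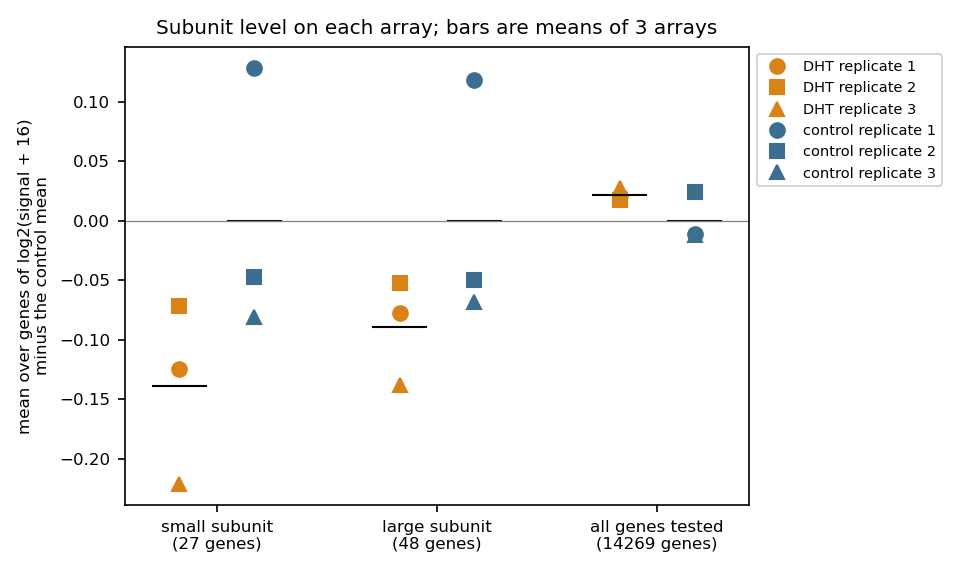
Mean over genes of log2(signal + 16) minus each gene's control mean, for the small subunit (27 genes), the large subunit (48 genes) and all genes tested (14269), with DHT arrays left, controls right, symbols for replicates and bars at the mean of 3 arrays. Control replicate 1 stands at 0.13 in the small and 0.12 in the large subunit, above the other arrays.

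Grouped by their number in the family, 44 members were counted as homologues of bacterial proteins and 31 as found only in mitochondrial ribosomes. The number does not establish the descent of each gene, and the split was made after the values were seen. Of the homologues, 7 fell (15.9%, against 5.91% of all genes) and 2 rose (4.55%, against 6.95% of all genes), with a median of -0.12. Among the mitochondria-specific genes 2 fell (MRPS34 and MRPS27) and none rose (limma, 1 higher and 5 lower at an unadjusted p under 0.05), with a median of -0.09. Calls in either direction made up 20.5% of the homologues and 6.45% of the mitochondria-specific genes, against 12.9% of all genes. All 4 falls of the large subunit were in homologues, which are 28 of its 48 members. The difference between the groups was not tested.

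Fold change went with the brightness of the probe set in which a gene was read. Among the 25 members with a mean signal of 500 or more, 12 were below 0, 1 fell (MRPS27) and both rises occurred, with a median of 0.01. Of all genes that bright, 12.2% fell and 15.1% rose. Among the 50 members under 500, 42 were below 0 and 8 fell, with a median of -0.15. Of all genes under 500, 4.82% fell and 5.54% rose. Those genes were dimmer, with a median signal of 87.0, against 317 for the members under 500. Their median SE was 0.157, against 0.104, so the shares do not have equal power. Over all genes tested, 46.8% of the brighter and 46.9% of the dimmer genes were below 0. Across members, Spearman's rho between mean signal and fold change was 0.34 (n = 75 genes), against -0.04 across all genes tested. Genes are not independent replicates and all share the same 6 arrays, and a probe set's brightness is not a level that can be set against that of another gene.

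**Figure D4:**
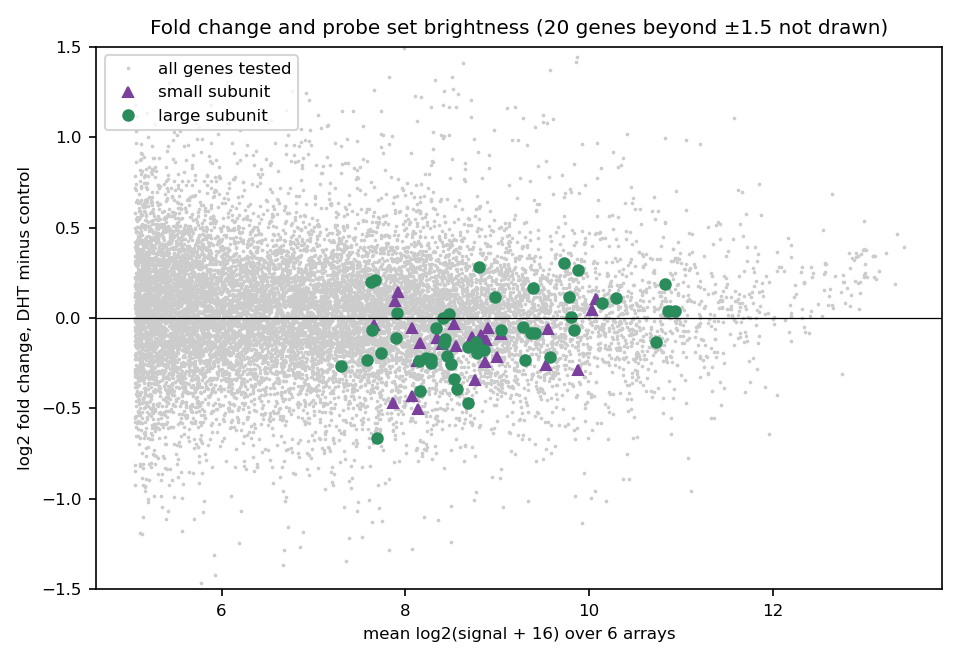
Log2 fold change (DHT minus control) against mean log2(signal + 16) over 6 arrays, for small subunit genes (triangles), large subunit genes (circles) and all 14269 genes tested (grey); 20 genes beyond 1.5 in either direction are not drawn. Most mitoribosomal genes under a signal of 500 lie below 0, 42 of 50.

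Different probe sets of a gene often disagreed. The members have 128 tested probe sets, of which 12 were lower and 3 higher at an adjusted p of 0.05 over probe sets, against 10.3% called of all probe sets. Of 31 members with several tested probe sets, 25 had values on both sides of 0, and of 19 with several at a mean signal of 100 or more, 12 did. Of the 11 genes that changed, 8 rested on a single tested probe set. For MRPL4, MRPS18C and MRPS27 the 4 other probe sets all had small values of the opposite sign that did not pass (0.04 to 0.26). Those of MRPS18C (signals of 21.4 to 29.9) and MRPS27 (12.5 to 25.1) lay near the dim limit of 17.3, while those of MRPL4 had 93.5 or more. MRPS15 held the sharpest conflict. In its brightest probe set it had 2056, 1875 and 1784 with DHT, against 2131, 1955 and 1526 in the controls (0.04, limma adjusted p = 0.887 over probe sets). Another MRPS15 probe set had 405, 340.3 and 431 with DHT, against 596, 502 and 487 in the controls (-0.42, adjusted p = 0.0294), and a dim one 83.1, 99.4 and 90.2 with DHT, against 50.2, 60.8 and 48.3 in the controls (0.63, adjusted p = 0.0184). MRPL30, by contrast, had -0.23, -0.26, -0.28 and -0.37 in 4 probe sets, the last of which passed (adjusted p = 0.0158), and 0.28 in its _x_at probe set (adjusted p = 0.202).

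The promoters share letters that the choice of members did not use. Entries were found for 67 of 75 members. The core of the motif of ETS factors, which include the nuclear respiratory factor GABPA, was searched as CCGGAAG, that of YY1 as ATGGCGG, that of NRF1 as GCGCANGCG and the hexamer read by the androgen receptor as AGAACA, on both strands, and each motif was counted on its own, also where matches of different motifs share bases. ETS letters were in 28 of 67 members (41.8%), against 17.6% of promoters of genes tested on the arrays and 10.7% of all promoters of this length. YY1 letters were in 23 members (34.3%), against 9.43% and 5.72%. NRF1 letters were in 13 members (19.4%), against 13.7% and 8.05%. The androgen receptor hexamer was in 7 members (10.4%), against 9.63% and 14.9%. Of 37 ETS matches in members, 31 began within 100 bases of the gene's start, and of 24 YY1 matches 22 did. The median first base was -22 for ETS matches and 15 for YY1 matches, the latter in the transcribed part of the window. Whether the YY1 letters there belong to the coding sequence was not tested.

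**Figure D5:**
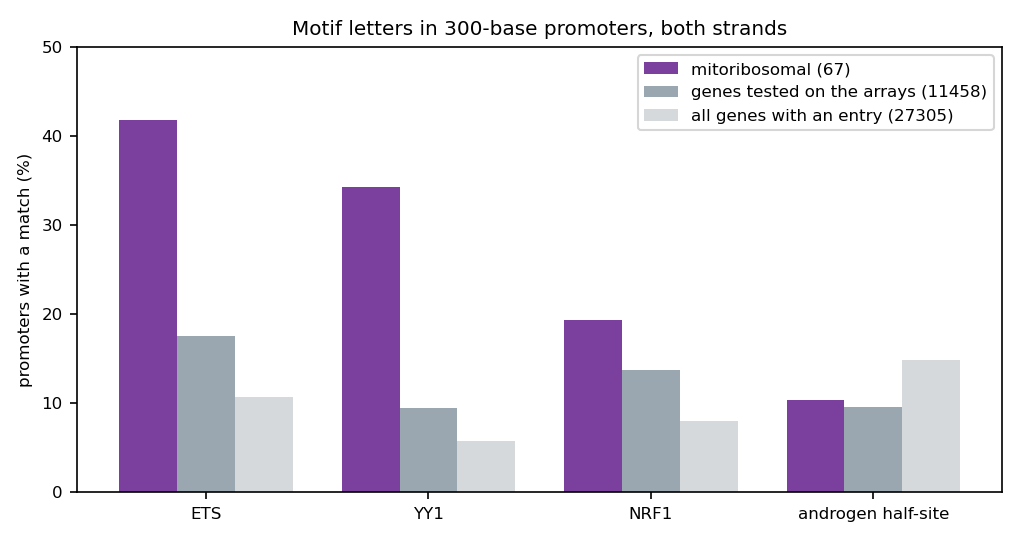
Share of promoters (%) with a match to each motif on either strand, for 67 mitoribosomal genes, 11458 genes tested on the arrays with a promoter entry and all 27305 genes with an entry. Bars are counts of promoters with no error, and ETS letters reach 41.8% of the mitoribosomal promoters.

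In the printed promoters, MRPS34 has 3 ETS matches upstream of its start, at -71, -29 and -19, and a YY1 match at 11, while MRPS9 has an NRF1 match at -39 and a YY1 match at 25. MRPL28 has an ETS match at 8 and the androgen receptor hexamer at -194, and MRPL32 has a YY1 match at -224. Positions are the first base of the match, counted from the start as 1 with no 0. Whether fold changes differ between members with and without the letters was not tested. Members with ETS letters had a median of -0.14 (23 of 28 below 0), against -0.08 without them (24 of 39 below 0). With YY1 letters it was -0.11 (n = 23), against -0.10 without (n = 44), and with NRF1 letters -0.08 (n = 13), against -0.11 without (n = 54). With the androgen receptor hexamer it was -0.14 (6 of 7 below 0), against -0.11 without (41 of 60 below 0). Of the 8 genes that fell and have an entry, 3 held ETS, 2 held YY1, 2 held NRF1 and 2 held androgen receptor letters. A match describes letters and shows no binding.

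Genes that work with the mitochondrial ribosome were read in short lists. Of 5 mitoribosomal proteins with other symbols, 4 were tested and PTCD3, a small subunit protein with pentatricopeptide repeats, rose, with 374 ± 29.8 with DHT and 292 ± 11.2 in the controls (SD, n = 3 each; limma adjusted p = 0.0264). GADD45GIP1 had -0.38 (adjusted p = 0.0967) and DAP3 -0.15 (adjusted p = 0.264). Of 26 tested assembly factors, 1 fell and none rose (1 higher and 3 lower at an unadjusted p under 0.05), with a median of -0.05. It was TFB1M, which methylates the small subunit's ribosomal RNA, at 59.9 ± 1.97 with DHT and 97.3 ± 12.6 in the controls (adjusted p = 0.0208), while MTERF4 had -0.34 and MTERF3 0.29 (adjusted p = 0.106 and 0.126). Of 15 tested translation factors, MTRFR, a factor of ribosome rescue, rose by 0.49 ± 0.14 (adjusted p = 0.0384) and none fell (2 lower at an unadjusted p under 0.05), LRPPRC had -0.22 (adjusted p = 0.0633) and MTFMT 0.35 (adjusted p = 0.132). None of 15 tested mitochondrial aminoacyl-tRNA synthetases passed in limma (0 higher and 3 lower at an unadjusted p under 0.05), with WARS2 at -0.38, FARS2 at -0.30 and HARS2 at -0.20. Of 18 genes of mitochondrial DNA transcription and upkeep, SSBP1, the single-stranded DNA-binding protein, fell and MTPAP, the mitochondrial poly(A) polymerase, rose. SSBP1 had 1106 ± 56.9 with DHT and 1477 ± 63.1 in the controls (adjusted p = 0.00375), MTPAP had 249.8 ± 19.9 with DHT and 179 ± 11.6 in the controls (adjusted p = 0.0130), and the polymerase gene POLG had 0.37 (adjusted p = 0.0947). Calls made up 25% of the tested proteins with other symbols, 3.85% of assembly factors and 6.67% of translation factors. They made up 0% of the synthetases and 11.1% of the mitochondrial DNA list, against 12.9% of all genes. On lists of 4 to 26 tested genes such shares rest on few calls.

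Set beside related lists on the same arrays, the mitoribosomal median of -0.11 stood near that of 66 respiratory chain genes (-0.09). It stood on the other side of 0 from that of 57 cytosolic ribosomal protein genes (0.17). In limma, 9 respiratory chain genes were lower (13.6%) and none higher, and 13 cytosolic ones were higher (22.8%) and 1 lower (1.75%). Over all genes tested, 5.91% were lower and 6.95% higher. Both lists are bright, with median signals of 1443 and 6536. Of all genes with a mean signal of 500 or more, 12.2% fell and 15.1% rose. At an unadjusted p under 0.05, limma had 2 respiratory chain genes higher and 13 lower, and 24 cytosolic ones higher and 5 lower. Of all genes, 13.8% were higher and 12.1% lower at that threshold. These lists were read from gene symbols, and no test compared them.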

How the data were processed

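Per the labels, biotin-labelled RNA of 6 LNCaP cultures was read on 1 Affymetrix array each. The deposited values are linear signal intensities, and the submitters' processing notes name MAS5; the trimmed mean of each deposited array was 100.03, so a common scaling precedes deposition and removes any change in total mRNA. Groups came from the sample titles, and p-values measure the spread between these cultures. Of 54675 probe sets, 62 controls were left out. Of the rest 41097 name 1 gene, 1801 several and 11777 none here. Of the single-gene probe sets 41043 matched a gene table of assembly GRCh38.p14. The lowest 40% by mean log2(signal + 16) were removed, at a signal of 17.3, and each gene was read in its brightest single-gene probe set, one ending in _x_at only where there was no other. Dim signals are noisy, and the pseudocount of 16 understates their fold changes. No depth applies to arrays, and 3 arrays a group limit the precision. All 14269 genes were fitted together with limma 3.58.1 (lmFit, eBayes with an intensity trend, R 4.3.3), with Benjamini-Hochberg adjustment over all of them. The procedure was tested on simulated data with independent noise and changes larger than that of any member. That test does not bear on calls of the size seen here or on shifts shared by genes of an array. Control probe ratios had two-sided exact permutation tests. Promoters came from RefSeq tables, at the first listed start of a gene. Named are all members past an adjusted p of 0.05, the 3 of each subunit with the largest change, a fixed set of members with known roles, and the 3 genes of each companion list with the smallest adjusted p. MRPS36 of that set is listed under a newer symbol outside the rule and was not analysed here. The members and lists were chosen with earlier results of these data known. Alternatives changed the pseudocount, dim limit, normalisation, replicate block, variance fit, probe set summary and arrays used.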

Additional observations from a re-analysis of the deposited data

How the results depend on the processing

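The median fold changes kept their sign under all alternatives run. With single arrays left out they ran from -0.15 to -0.07 in the small and from -0.14 to -0.04 in the large subunit. With spike scaling, a setting known from earlier results, they were -0.64 and -0.62, and the median of all genes was -0.51. That setting shifts each array as a whole, so the sign kept there says nothing of the subunits. The counts of calls moved more. Members higher were 1 with no limit on dim probe sets and with the replicate block, 0 with equal array medians and without the variance trend, and 0 to 3 with single arrays left out. Members lower were 4 with equal array medians (2 in each subunit), 0 without the trend (0 in each subunit), and 5 to 8 with single arrays left out (2 to 5 small, 2 to 3 large). The small subunit had 3 with probe sets of a gene averaged. Equal array medians also took the share of calls over all genes that were higher to 40.8%, against 54.0% as reported, and calls over all genes were 671 without the trend, 1143 with equal medians and 1834 as reported. Arrays with the same replicate number hardly shared deviations from their group means (correlations -0.01, -0.03 and -0.00). Such values cannot show whether those cultures were handled as pairs. With the replicate block, limma gave 1 higher and 8 lower, with MRPL24 at an adjusted p of 0.0643 and MRPS18C at 0.0524. Among genes that passed, the signs of both rises turned with the shift of spike scaling, to -0.22 for MRPL32 and -0.26 for MRPL24. Both stayed above the median of all genes in that setting. The other turned signs were in genes that did not pass. With equal array medians MRPL3 was -0.026 and MRPL41 -0.022. With averaged probe sets MRPL41 was -0.055, MRPS12 0.064, MRPS22 0.023 and MRPS30 0.084. With single arrays left out MRPL41 ran from -0.025 (without DHT replicate 2) to 0.093, also below 0 without control replicate 3, and MRPS18A from -0.15 to 0.050, above 0 without replicate 1 of either group. The cause of these shifts was not tested.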
